A study of Mus musculus with 12 samples.

Results

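Levels of 8 cholesterol synthesis genes were compared in the brainstem of P15 mice that had received morphine or saline. The members were the rows of the count table named Hmgcs1, Sqle, Idi1, Fdft1, Fdps, Cyp51, Dhcr7, and Insig1, which are 8 of the 55418 genes in the table. The mice were outbred CFW (Swiss Webster) animals, and no engineered allele is named. They were injected subcutaneously 2 times daily from P1 to P14 with morphine at 15 mg/kg or with saline, and tissue was taken on P15, 16 h after the last injection. There were 12 libraries, 1 per mouse, in 4 groups of 3 by sex and treatment. None of the 8 genes passed the thresholds of the study between morphine and saline in all mice, females, or males as counted. A correction for GC content was tried after the libraries had been seen. With it Idi1 passed those thresholds in the comparison of the sexes' responses, where 6.11% of all genes did. With the correction and without 1 saline male, Hmgcs1 passed them in males, where 19.5% of all genes did. In several of the genes the spread between libraries, largest in Dhcr7 and Idi1, moved with the GC content of the transcripts.

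Cholesterol in the brain is made locally, because the lipoproteins of the blood do not cross the blood-brain barrier. In mice the demand peaks in the first postnatal weeks, when oligodendrocytes build myelin, the most cholesterol-rich membrane of the tissue. The enzymes of the pathway are known to be regulated together: when sterols in the endoplasmic reticulum fall, SCAP carries the SREBP transcription factors to the Golgi for cleavage, and the released fragment enters the nucleus and binds sterol regulatory elements in the promoters of these genes. Insig1 encodes the membrane protein that holds SCAP back when sterols are plentiful, and it is itself a target of SREBP.

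The labels name the tissue as brainstem, and the extraction protocol deposited with them names spinal cords. Brainstem genes (Tph2, Dbh, Slc6a5, and Hoxa3) had counts in every library. The forebrain gene Emx1 was at 0 in 5 libraries, and Hoxc9, Hoxc10, and Hoxd10, which mark the thoracic and lumbar spinal cord, were at 0 in 11, 11, and 10 of 12 libraries. Total counts were 27850565 to 48097947 per library with a median of 33214511. Levels are given in CPM, counts relative to the size of the library after TMM scaling, unless a sentence says otherwise. These are bulk samples, in which fewer cells of a type and less RNA per cell cannot be told apart.

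2 libraries stood apart before any comparison. The library labelled morphine male 6 had 380 CPM of Xist, the RNA of the inactive X chromosome, where the other 5 male libraries had at most 2.65 CPM and the female libraries at least 550 CPM. Its level of the Y-linked gene Ddx3y was 12.8 CPM, against 115 to 199 CPM in the other males and at most 0.734 CPM in females. It was kept in its labelled group, and counts of members called without a correction for GC content are given with and without it. Counts with that correction are given only with it. In saline male 3, genes were displaced according to the GC content of their transcripts: across 18608 genes, Spearman's rho of GC content and the difference of the library's log2 CPM from the mean of all libraries was -0.73, whereas it was 0.63 and 0.73 in saline males 1 and 2. The other 9 libraries ranged from -0.59 in saline female 6 to 0.59 in morphine male 6. The saline males thus held both ends of the range, and results in males are given with and without saline male 3.

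The promoter sequences are shown because SREBP acts through them and because members that varied together could be compared with members that did not. Windows of 250 bases upstream of a transcription start were found for 5 of the 8 members in the RefSeq table of GRCm38.p6 (Hmgcs1, Idi1, Cyp51, Dhcr7, and Insig1). The windows of Hmgcs1, Cyp51, Insig1, and of the first start of Dhcr7 are given 5' to 3' up to the annotated gene start. Capitals mark matches, on either strand, to the sterol regulatory element core TCACNCCAC, to the NF-Y motif CCAAT, which reads ATTGG when it lies on the other strand, and to the Sp1 motif GGGCGG, which then reads CCGCCC.
Hmgcs1, chr13:119690101-119690350, + strand: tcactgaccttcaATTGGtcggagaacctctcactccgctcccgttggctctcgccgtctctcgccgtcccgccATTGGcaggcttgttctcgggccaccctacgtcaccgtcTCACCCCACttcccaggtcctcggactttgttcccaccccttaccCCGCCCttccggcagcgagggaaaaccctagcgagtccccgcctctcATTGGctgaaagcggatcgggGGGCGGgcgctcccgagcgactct
Cyp51, chr5:4104747-4104947, - strand: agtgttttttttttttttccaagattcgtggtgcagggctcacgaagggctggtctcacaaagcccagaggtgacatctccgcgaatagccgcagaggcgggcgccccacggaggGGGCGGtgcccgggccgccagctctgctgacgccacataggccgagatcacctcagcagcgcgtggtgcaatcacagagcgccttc
Insig1, chr5:28071162-28071362, + strand: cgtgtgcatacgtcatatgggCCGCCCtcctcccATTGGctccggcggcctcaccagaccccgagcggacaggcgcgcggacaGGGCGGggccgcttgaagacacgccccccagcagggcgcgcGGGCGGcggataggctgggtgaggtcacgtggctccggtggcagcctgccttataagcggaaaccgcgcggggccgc
Dhcr7, chr7:143822917-143823144, + strand: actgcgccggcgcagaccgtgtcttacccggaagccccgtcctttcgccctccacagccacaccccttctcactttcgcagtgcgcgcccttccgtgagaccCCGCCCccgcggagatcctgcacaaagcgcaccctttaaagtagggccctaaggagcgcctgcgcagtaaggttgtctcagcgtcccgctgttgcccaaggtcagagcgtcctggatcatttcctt

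The sterol regulatory element core was matched in the window of Hmgcs1, 137 to 129 bases upstream of its start, and in no other member's window. It was matched in 1.05% of 32851 windows of the same length over all genes. Only exact matches to TCACNCCAC were searched. A window without a match may therefore still hold a sterol regulatory element of another sequence. CCAAT was found in the first window of 4 of the 5 members, all but Dhcr7, against 33.8% of all windows, and GGGCGG in the first window of all 5, against 32.7%. Hmgcs1 held 3 CCAAT and 2 GGGCGG matches, Insig1 held 1 and 3, Cyp51 held 1 and 1, and Idi1 held 2 and 1. The CCAAT match of Cyp51 lies 29 to 25 bases upstream of the RefSeq start, inside the annotated gene, and is therefore not in the printed stretch. Another start of Dhcr7, further downstream, held 2 CCAAT and 3 GGGCGG matches. The motifs searched do not overlap each other in these windows.

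The genes lie apart in the genome (GRCm38). Hmgcs1 (chr13:119690379-119708260) and Idi1 (chr13:8885501-8892451) share a chromosome, as do Cyp51 (chr5:4081145-4104746) and Insig1 (chr5:28071363-28078662). Sqle is at chr15:59315077-59331192, Fdft1 at chr14:63145150-63179578, Dhcr7 at chr7:143823145-143848410, and Fdps at chr3:89093588-89101959. The counts of 5 members could be affected by overlapping genes, because the setting for strand and for reads in shared exons is not given in the sources used here. For Fdps, 81.3% of the main coding transcript (1124 of 1382 bases) lies on exons that are also assigned on the same strand to Gm43738, which had a count of 0 in all 12 libraries. The share that lies on exons of a gene of the opposite strand was 20.9% for Fdft1 (Ctsb), 16.1% for Hmgcs1 (Gm48342), 10.7% for Idi1 (Gm48574), and 4.22% for Cyp51 (Akap9). Sqle, Dhcr7, and Insig1 share no bases of their main coding transcripts in this way.

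Per length, the pathway was led by Hmgcs1. In the 6 saline mice its level was 1017 ± 97.2 TPM (SD, n = 6), the CPM of a gene divided by its exon length and scaled to a common total, and Cyp51 followed at 384 ± 51.5 TPM. Insig1 (167 ± 18.1 TPM), Sqle (165 ± 15.4 TPM), and Fdft1 (143 ± 17.1 TPM) formed a middle group in which the ranges of neighbours overlapped. Idi1 (89.1 ± 15.4 TPM) and Dhcr7 (68.7 ± 14.6 TPM) also overlapped. Hmgcs1 and Cyp51 were each separated from the next gene, as was Fdft1 from Idi1. Fdps was last at 5.46 ± 0.821 TPM, and its value carries the doubt over shared exons given above. TPM values here divide by the length of all exons of a gene, so a gene with long rare exons comes out lower.

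Hmgcs1 encodes the synthase that makes HMG-CoA, from which mevalonate is formed. It was measured at 1101, 1185, and 1346 CPM in saline males and at 999.8, 1199, and 997.6 CPM in morphine males. In females it was measured at 1245, 1372, and 1222 CPM after saline and at 1263, 1200, and 1214 CPM after morphine. The groups overlapped in both sexes, and morphine males 4 and 6 were the lowest of the 12. Over all mice the level after morphine was 0.918 times that after saline (95% CI 0.817 to 1.03, n = 6 and 6, adjusted p = 1.00 with edgeR's quasi-likelihood test), and it had the lowest unadjusted p among the members.

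The next enzymes lead to farnesyl diphosphate, the branch point between sterols and prenylated proteins. Idi1, the isomerase of isopentenyl diphosphate, was measured at 79.8, 79.8, and 84.1 CPM in saline females and at 90.0, 98.2, and 86.8 CPM in morphine females, which did not overlap. The log2 fold change in females was 0.17 ± 0.09 (SE, adjusted p = 1.00, edgeR's quasi-likelihood test), below the fold threshold. In males Idi1 was measured at 73.6, 71.5, and 111 CPM after saline and at 70.1, 98.1, and 63.9 CPM after morphine. Saline male 3 was the highest of the 12 and morphine male 6 the lowest, and the log2 fold change in males was -0.17 ± 0.24 (SE). Fdps, farnesyl diphosphate synthase, ranged from 5.19 CPM (saline male 3) to 7.88 CPM (saline male 2), with a log2 fold change over all mice of 0.12 ± 0.12 (SE).

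Fdft1 encodes squalene synthase, the first enzyme that serves sterols alone, and Sqle encodes the epoxidase that follows it and is known as a rate-limiting step. Fdft1 ranged from 144 to 188 CPM, with medians of 158 CPM after saline and 154 CPM after morphine. Sqle ranged from 213 to 268 CPM after saline (median 245 CPM) and from 210 to 264 CPM after morphine (median 223 CPM). For both genes the ranges of the groups overlapped almost fully, with log2 fold changes over all mice of -0.03 ± 0.08 for Fdft1 (SE) and -0.09 ± 0.07 for Sqle (SE).

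Cyp51 encodes the demethylase of lanosterol, and Dhcr7 the reductase that completes cholesterol. Cyp51 was measured at 371, 409, and 504 CPM in saline males, 385, 412, and 373 CPM in morphine males, 474, 513, and 436 CPM in saline females, and 440.0, 463, and 467 CPM in morphine females. Its log2 fold change over all mice was -0.09 ± 0.08 (SE). Dhcr7 was measured at 119, 137, and 67.3 CPM in saline males, 108, 106, and 121 CPM in morphine males, 116, 106, and 95 CPM in saline females, and 102, 108, and 101 CPM in morphine females. Saline male 3 was far below every other library for Dhcr7, and saline male 2 was the highest, so that the highest level was 2.04 times the lowest. The log2 fold change of Dhcr7 over all mice was 0.01 ± 0.14 (SE).

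Insig1, the sterol sensor, ranged from 115 to 151 CPM after saline (median 141 CPM) and from 121 to 150.3 CPM after morphine (median 131 CPM). Its log2 fold change over all mice was -0.03 ± 0.08 (SE).

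**Figure D1:**
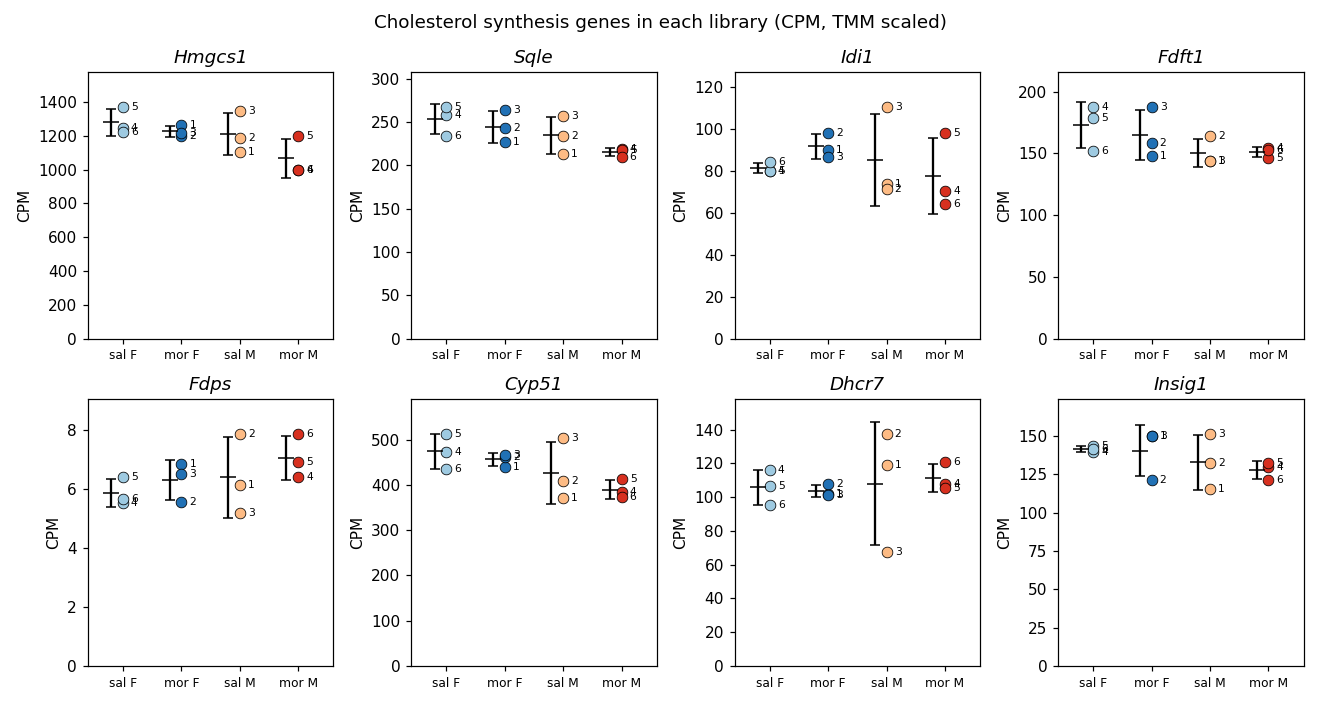
Level of each of the 8 genes in every library, in CPM after TMM scaling, for saline females (sal F), morphine females (mor F), saline males (sal M), and morphine males (mor M). Points are mice with their replicate numbers, and bars are mean ± SD of 3 mice. Dhcr7 is lowest in saline male 3 (67.3 CPM), and Idi1 is highest there (111 CPM).

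A gene was called where the unadjusted p was under 0.05 and the absolute log2 fold change over 0.26, the thresholds of the study. By this rule 0 of 8 members were called in all mice, where 1.19% of 18608 genes were called. None was called in females, where 1.81% of 18109 genes were, or in males, where 2.99% of 18166 genes were. At an unadjusted p under 0.05 without the fold threshold the count was also 0 of 8 in each, with edgeR's exactTest and DESeq2 it was 0 of 8 as well, and the smallest adjusted p among the members was 1.00 in each. The log2 fold changes of the members ran from -0.12 to 0.12 in all mice, from -0.08 to 0.17 in females, and from -0.21 to 0.11 in males. The outermost limits of the confidence intervals of the 8 genes were 0.817 and 1.31 times the saline level in all mice. They were 0.796 and 1.36 times in females and 0.602 and 1.54 times in males. Single genes differed from this order: the SE was smaller in females than in all mice for Idi1 (0.09 and 0.13) and Dhcr7 (0.09 and 0.14). In males the intervals of all 8 genes reached past the fold threshold in at least 1 direction, and in all mice those of Sqle, Fdft1, and Insig1 lay within it on both sides.

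**Figure D2:**
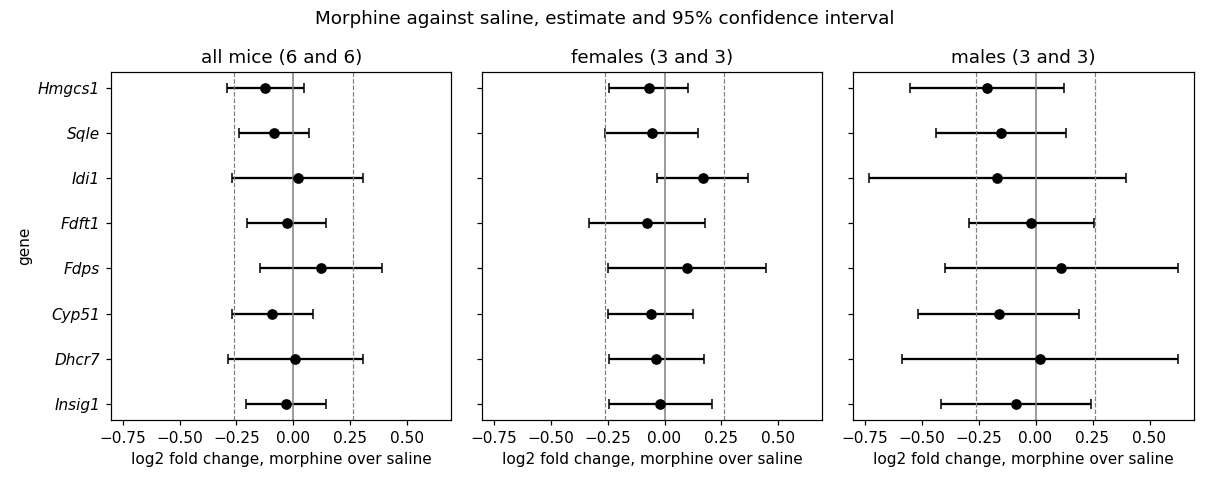
Log2 fold change of morphine over saline for each of the 8 genes (points) with 95% confidence intervals (bars), from separate fits of all mice, females, and males. Dashed lines mark the fold threshold of 0.26 in either direction. Every interval includes 0, and the intervals in males are the widest, down to a log2 value of -0.73 for Idi1.

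The median log2 fold change of the members was -0.03 in all mice, -0.05 in females, and -0.12 in males, beside -0.02, -0.01, and -0.06 over all genes tested. The members with a lower level after morphine were 5 of 8 in all mice and 6 of 8 in each sex, and scaling by total counts made this 3 of 8 in all mice and 4 of 8 in males, with 6 of 8 in females. That scaling raised the median of all genes in males by 0.13 on the log2 scale, and the members' median in males stood at 0.01 beside 0.06 over all genes under it. Without saline male 3, 0 of 8 members were called in all mice, where 2.42% of genes were called, and 0 of 8 in males, where 28.6% of genes were called. The members' median in males without it was -0.0065. Without morphine male 6, 0 of 8 members were called in all mice (1.17% of genes) and 0 of 8 in males (2.47% of genes).

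The change in males and the change in females were compared by the interaction test. None of 8 members was called, where 2.94% of 19027 genes were. The differences, male change minus female change on the log2 scale, ran from -0.32 for Idi1 (SE 0.26, adjusted p = 0.985) to 0.08 for Fdft1 (SE 0.17, adjusted p = 0.987). Without morphine male 6 none of 8 was called, where 3.39% of genes were, and Idi1 was at -0.20. Without saline male 3 none of 8 was called, where 24.1% of genes were, and Idi1 was at -0.11.

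Sex itself was compared over all mice, with treatment in the fit. The level was higher in females for 6 of 8 members, with a median log2 difference of 0.13 against 0.01 over all genes, and 6 of 8 were also higher in females under scaling by total counts. None passed both thresholds, where 3.94% of genes did. Cyp51 was 1.14 times as high in females (95% CI 1.01 to 1.29, adjusted p = 0.734, edgeR's quasi-likelihood test). It passed the threshold on the unadjusted p, but its log2 difference of 0.19 lies under the fold threshold. The pass was lost without morphine male 6 (0.17, adjusted p = 0.967) and with offsets for GC content (0.12, adjusted p = 0.930), and it was kept without saline male 3 (0.23, adjusted p = 0.0528). Without morphine male 6 the median log2 difference of the members was 0.10 and none passed both thresholds, where 2.42% of genes did. Without saline male 3 none did either, where 20.9% of genes did. Its 6 female values lay between 436 and 513 CPM and its 6 male values between 371 and 504 CPM, so that the groups overlapped, and only saline male 3 among the males exceeded the lowest female. Sqle (log2 difference 0.15 ± 0.07, SE) and Fdft1 (0.16 ± 0.08, SE) followed. With offsets for GC content Fdft1 passed the threshold on the unadjusted p (0.19, adjusted p = 0.930, edgeR's quasi-likelihood test). By the same test, 3 members besides Cyp51 passed it without saline male 3. These were Hmgcs1 (0.16, adjusted p = 0.122), Sqle (0.16, adjusted p = 0.102), and Dhcr7, which was lower in females (-0.21, adjusted p = 0.0954). The share of all genes that passed on the unadjusted p alone is not given here. As 20.9% passed both thresholds without saline male 3, these passes are no result about the members.

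The other enzymes of the pathway were read from a list of 14 genes, of which 14 were tested. In all mice 14 of 14 had a lower level after morphine, with a median log2 fold change of -0.06, where 57.4% of all genes were lower. None of the 14 was called, where 0.58% of all genes were called lower. Under scaling by total counts 8 of 14 were lower. In males 1 of 14 was called lower, where 1.07% of all genes were, and 13 of 14 were lower, where 62.4% of all genes were, with 7 of 14 under scaling by total counts. The called gene was Acat2, which joins acetyl-CoA units into acetoacetyl-CoA. It was measured at 156, 160.0, and 157 CPM in saline males and at 134, 129, and 138 CPM in morphine males, which did not overlap. Its log2 fold change in males was -0.27 ± 0.11 (SE, adjusted p = 1.00, edgeR's quasi-likelihood test), at the edge of both thresholds, and the call was lost when any of the 6 males was left out and with exactTest or DESeq2. In females it was -0.03 ± 0.10 (SE), and the difference between the sexes was not called as counted, though it was with offsets for GC content (male change minus female change -0.27, SE 0.11, adjusted p = 0.755).

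The genes that control sterol synthesis and uptake did not pass the test either: of 12 listed, 11 were tested and 0 called in each comparison of morphine with saline, and the remaining gene was too low to test. Srebf2, which encodes the main SREBP of sterol synthesis, had 136 ± 52.6 CPM after saline and 122 ± 10.2 CPM after morphine (SD, n = 6 and 6), with a saline range of 82.8 to 215 CPM. Of 12 genes for sterol export, storage, and turnover and of 10 genes for fatty acid synthesis, none was called in all mice, females, or males. Apoe, the main lipid carrier of the brain, had 753 ± 518 CPM after saline and 583 ± 123 CPM after morphine (SD, n = 6 and 6). The desaturase Scd2 had 4482 ± 152 CPM after saline and 4120 ± 292 CPM after morphine (SD, n = 6 and 6), a log2 fold change of -0.12 ± 0.07 (SE).

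Within groups, 6 of the 8 members were steadier than most genes of like level (within 1.5 times the mean CPM). The SD within groups was 0.12 on the log2 scale for Hmgcs1, below which lay 10.8% of 74 such genes, and 0.10 for Sqle, below which lay 12.8% of 904. The exceptions were Idi1 (SD 0.24, with 70.6% of 2367 genes below it) and Dhcr7 (SD 0.29, with 82.6% of 2030 below it).

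Across the 12 libraries Hmgcs1, Sqle, Cyp51, and Insig1 moved together. These 4 were picked out after their values were seen, and correlations are given as descriptions, over 12 libraries that share depth and base composition differences. Pearson's r of log2 CPM ranged from 0.67 to 0.93 over their 6 pairs, and from 0.55 to 0.87 after group means were subtracted. Sqle and Cyp51 were the closest pair (r = 0.93, Spearman's rho 0.92). Dhcr7 ran against them, with r of -0.49 with Hmgcs1, -0.56 with Cyp51, and -0.75 with Idi1, and so did Fdps, with r of -0.44 with Hmgcs1 and 0.65 with Dhcr7. Over all 28 pairs the median r was 0.30.

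The GC content of the transcripts moved with these patterns. Among 22 genes (the 8 members and the 14 other enzymes) it ran from 41.9% for Idi1 to 59.0% for Mvd, with 52.8% for Dhcr7, beside a median of 49.1% over the genes tested. In saline male 3, the deviation of the log2 level from the mean of all libraries fell with GC content over the 22 genes (Pearson's r = -0.93). 8 of the 22 were at their lowest of 12 libraries there, Dhcr7 and Fdps among them, and 5 were at their highest, Idi1 and Insig1 among them. The mevalonate enzymes Mvk and Mvd, at the high end of GC content, showed it most: Mvk was at 39.5 and 49.8 CPM in saline males 1 and 2 and at 7.00 CPM in saline male 3, while the other 9 libraries lay between 9.91 and 22.1 CPM.

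**Figure D3:**
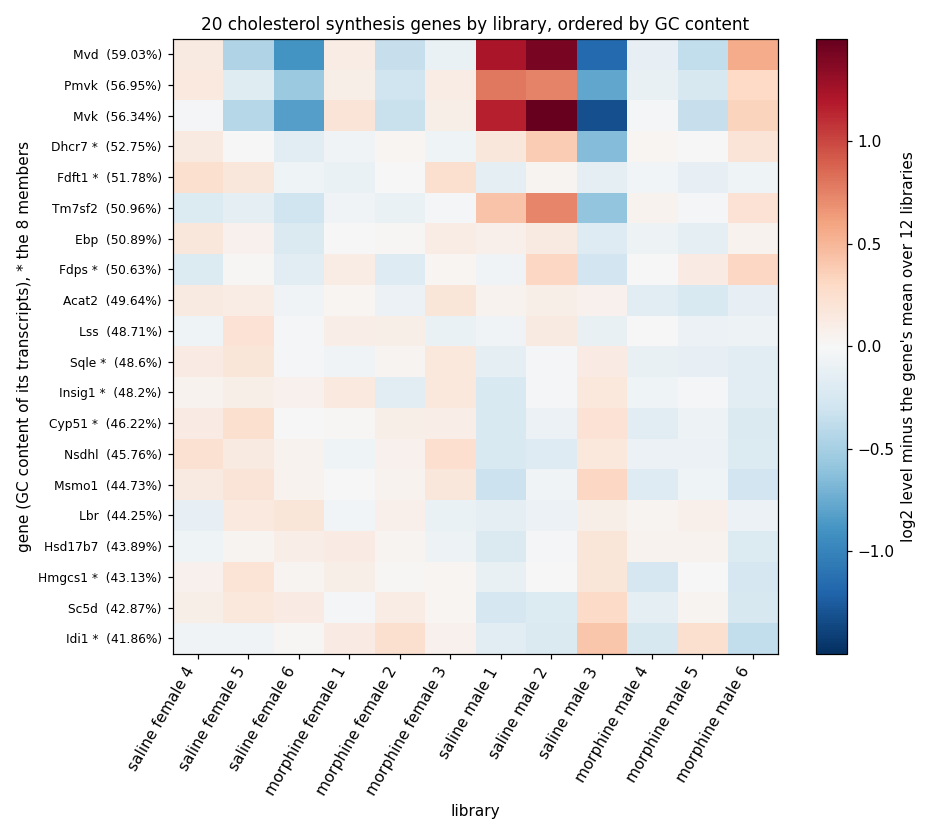
Log2 level of 20 cholesterol synthesis genes in each library minus the gene's mean over the 12 libraries, with genes in rows from the highest to the lowest GC content and members marked by an asterisk. Mvd, Pmvk, and Mvk are high in saline males 1 and 2 and low in saline male 3, and the genes in the lower rows are shifted the opposite way and by less.

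When the trend of each library on GC content (lowess over all genes, span 0.3) was subtracted, the SD within groups became smaller for 20 of the 22 genes and for 7 of the 8 members. It went from 0.29 to 0.15 for Dhcr7 and from 0.24 to 0.11 for Idi1, and for Hmgcs1 it rose from 0.116 to 0.125. The trend was fitted to these same libraries, which by itself lowers the spread of many genes. The share of all genes with a smaller SD was not computed, so these counts are no result about the pathway. The deviation of Idi1 in saline male 3 went from 0.42 to 0.10, and that of Dhcr7 from -0.65 to -0.38. The opposition of Idi1 and Dhcr7 went from r = -0.75 to -0.17, and that of Hmgcs1 and Dhcr7 from -0.49 to 0.41. Sqle and Cyp51 stayed the closest pair at r = 0.95, while Hmgcs1 and Insig1 went from 0.70 to 0.33. Over the 6 pairs of the 4 genes r then ranged from 0.33 to 0.95, and from 0.14 (Hmgcs1 and Insig1) to 0.90 (Sqle and Cyp51) after group means were subtracted as well, with 0.29 for Hmgcs1 and Sqle. The r of Fdft1 went from 0.71 to 0.81 with Sqle and from 0.48 to 0.73 with Cyp51.

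**Figure D4:**
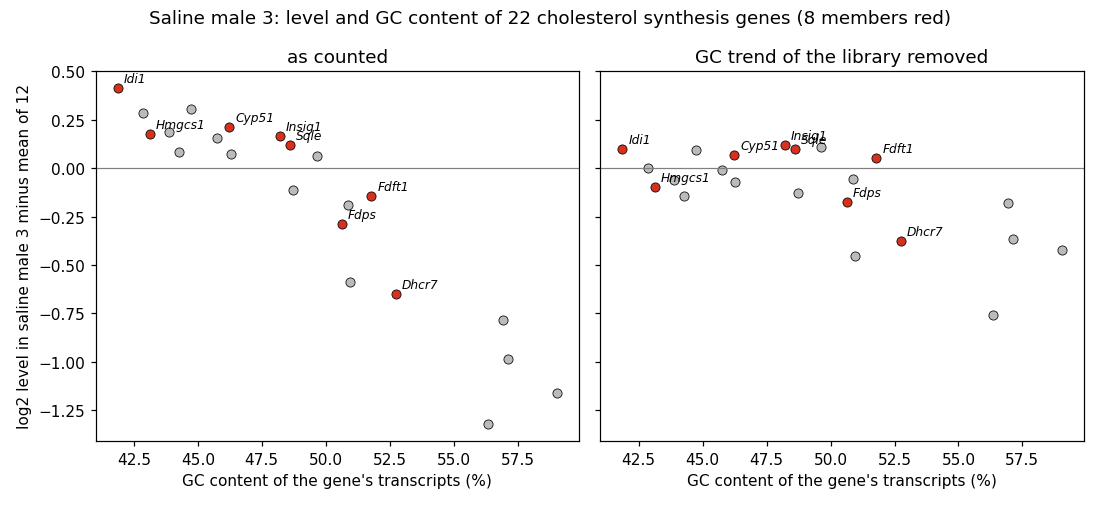
Deviation of the log2 level in saline male 3 from the mean of the 12 libraries, against the GC content of the transcripts in percent, for the 8 members (red, named) and 14 other enzymes (grey). On the left, as counted, points fall from Idi1 at 0.42 to Dhcr7 at -0.65 and lower for other enzymes, and on the right, with the library's GC trend removed, Idi1 is at 0.10 and Dhcr7 at -0.38.

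**Figure D5:**
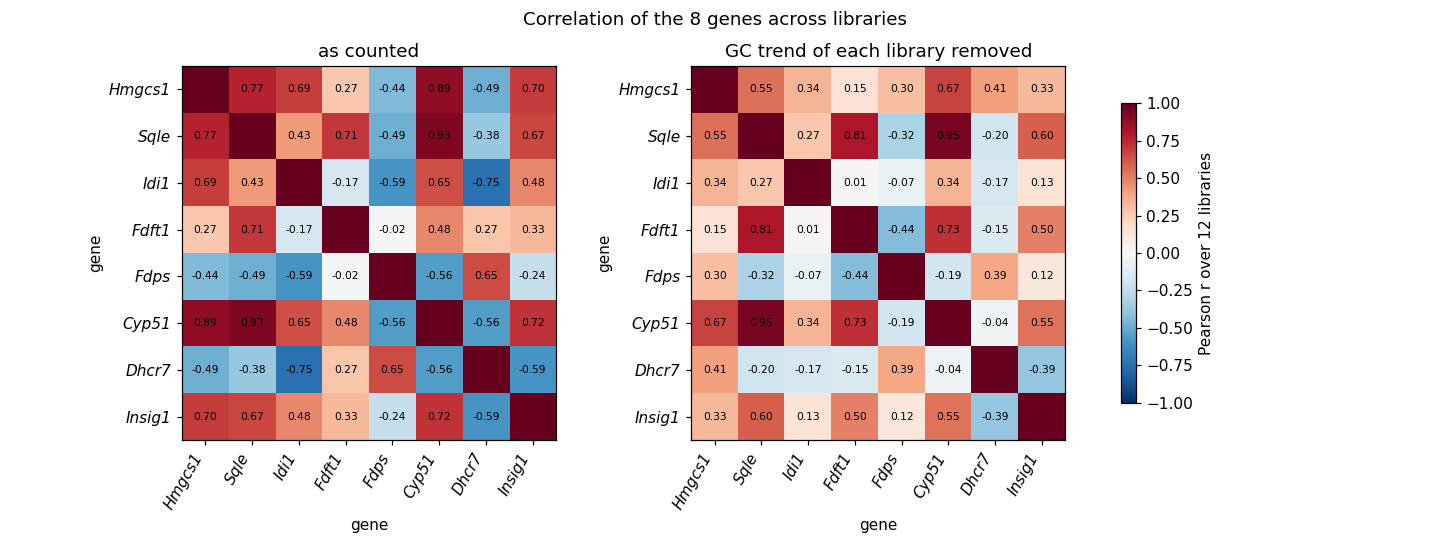
Pearson's r between the 8 genes over 12 libraries, as counted on the left and with the GC trend of each library removed on the right. Dhcr7 is negative with Idi1 (-0.75) on the left and near 0 (-0.17) on the right, and Sqle with Cyp51 is over 0.9 on both sides.

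The tests were repeated with offsets for the GC trend, an alternative chosen after the libraries had been seen. In males 0 of 8 members were then called, where 7.24% of genes were called, and Acat2 was still called (log2 fold change -0.28, adjusted p = 0.414). Sqle in males had a log2 fold change of -0.16 (adjusted p = 0.501), past the threshold on the unadjusted p and under the fold threshold. In females Idi1 had a log2 fold change of 0.22 (adjusted p = 1.00), also past the former and under the latter. In the interaction 1 of 8 was called, where 6.11% of genes were: Idi1, with a male change minus female change of -0.36 (SE 0.13, adjusted p = 0.755). No fit with GC offsets is given without morphine male 6, the library with the lowest Idi1 (63.9 CPM) and Hmgcs1 (997.6 CPM).

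The counts of calls in males turned on saline male 3. Without it 5 of the 14 other enzymes were called in males, all lower after morphine, among them Mvk, Pmvk, Mvd, and Tm7sf2, with 28.6% of all genes called. The log2 fold change of Mvk was then -1.32 ± 0.20 (SE, adjusted p = 0.0113, edgeR's quasi-likelihood test), against a saline group made of males 1 and 2, the 2 libraries with the highest levels of genes rich in GC. With GC offsets and without saline male 3, 19.5% of genes were called in males, among them 1 of 8 members, Hmgcs1 (log2 fold change -0.29 ± 0.08, SE, adjusted p = 0.0418), and 5 of the 14 other enzymes. In the interaction of the same fit 16.3% of genes were called, with Hmgcs1 (-0.28) and Idi1 (-0.35) among the members. These shares of all genes rest on 2 saline males.

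Levels of cell type markers moved across the libraries as well. The mean log2 level of the 8 members had a Pearson's r of 0.69 with the summed level of markers of oligodendrocyte precursors and newly formed oligodendrocytes, 0.56 with that of microglia, 0.52 with that of astrocytes, 0.39 with that of neurons, and 0.34 with that of myelinating oligodendrocytes, over 12 libraries. It was -0.34 with that of cerebellar granule cells and -0.62 with that of choroid plexus markers. The order changed without the 2 libraries farthest from the median of the members' mean level. Then r was 0.69 for the precursors, 0.59 for microglia, 0.59 for myelinating oligodendrocytes, 0.37 for neurons, and 0.27 for astrocytes. For cerebellar granule cells it was -0.43 and for choroid plexus -0.53. The summed level of the 7 precursor markers ranged from 1391 to 1560 CPM after saline and from 1305 to 1542 CPM after morphine, and 0 of 7 were called in any comparison of morphine with saline. Of 12 markers of myelinating oligodendrocytes, 2 were called in males, both lower after morphine (Mobp and Cldn11), where 1.07% of all genes were called lower, with summed levels of 44766 to 64102 CPM in saline males and 37780 to 47052 CPM in morphine males. Of 4 choroid plexus markers, 3 were called higher in males (Folr1, Kl, and Clic6), where 1.92% of all genes were called higher, and the 4 summed to 261 to 516 CPM in saline males and 411 to 830 CPM in morphine males. Of 4 markers of cerebellar granule cells, 3 were called higher in males and in all mice (Gabra6, Fat2, and Cbln3), where 0.607% of all genes were called higher in all mice, and the 4 summed to 25.9 to 29.2 CPM in saline males and 36.3 to 77.1 CPM in morphine males. Their part in the levels of the members was not tested.

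By the likeness of their pattern, 13496 genes with a mean of at least 1 CPM were ranked on Pearson's r with the mean log2 level of the 8 members over 12 libraries. The closest were Sh3gl3 (0.94), Depdc1b (0.92), Siglech (0.89), Prim2 (0.88), and Tmem179b (0.88), none of them in the lists of lipid genes. The most opposed were Hs6st3 (-0.85), Lpin1 (-0.82), Sptbn1 (-0.81), Fosl2 (-0.81), and Hydin (-0.80). The ends of a ranking of 13496 genes over 12 libraries hold extreme values by selection alone. The levels were not adjusted for GC content here, so the genes named at the ends are a description only. Among the other enzymes Msmo1, which acts after Cyp51, had the highest r (0.78), whereas Mvk, Mvd, Pmvk, and Tm7sf2 lay between -0.22 and -0.14.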

How the data were processed

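RNA-seq of poly-A RNA was available for 12 mice. Per the methods and labels, the authors used Trimmomatic on single-end reads of 100 bases, STAR for alignment (mm10), and featureCounts on Ensembl exons, and the deposited values are those raw counts per gene, whose totals differ between libraries. Versions of these tools and the strand setting are not given in the sources used here, and no label gives the dam, which the study names as a covariate.

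Samples were grouped by the treatment and sex of the labels. Genes were kept by filterByExpr and tested over the whole table with edgeR 4.0.16 (TMM scaling, quasi-likelihood test, Benjamini-Hochberg adjustment) in R 4.3.3: morphine against saline in all mice with sex as a covariate, in each sex alone, and as an interaction. A prior count of 2 was used for logs. The named genes were the 8 members, called genes of each list or its genes of highest level, and 5 genes at each end of the pattern ranking. Some genes of the lists are not reported here. The members and lists were chosen with earlier results of these data known. DESeq2 1.42.0 and other settings were alternatives. Fits were tested on simulated data. Positions, exon lengths, and GC content came from GENCODE annotation of GRCm38. The libraries are separate mice by the labels, and p-values measure the spread between 3 or 6 of them, with depth of at least 27850565 counts per library.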

Additional observations from a re-analysis of the deposited data

Results flagged for a closer look

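Of 44 groups (22 genes, each in 6 saline and in 6 morphine libraries), 3 held a library whose gap to its nearest neighbour was large for the range of the group by Dixon's criterion, and chance flags about 1 in 20 groups. Idi1 was at 111 CPM in saline male 3, above the other saline libraries. Fdft1 was at 188 CPM in morphine female 3, above the other morphine libraries. Dhcr7 was at 121 CPM in morphine male 6, the library whose Xist and Y-linked levels lie between the sexes.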

How the results depend on the processing

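The count of members called was 0 in all mice, females, and males with exactTest, DESeq2, DESeq2 size factors, total counts, other filters, the p threshold alone, GC offsets, and each mouse left out. With GC offsets and saline male 3 left out together, a setting chosen after seeing the data, it became 1 in males (Hmgcs1, -0.29). In that fit 19.5% of genes were called, with 5 other enzymes among them. In the interaction of this setting the count of members was 2 (Hmgcs1, -0.28, and Idi1, -0.35), where 16.3% of genes were called. With GC offsets alone it was 1 in the interaction (Idi1, -0.36), where 6.11% of genes were called. With the p threshold alone it was 1 between the sexes (Cyp51, 0.19), and the share of all genes at that threshold is not given here. Log2 fold changes near 0 changed sign: in all mice Dhcr7 was at -0.0011 with DESeq2 and with its size factors and at -0.0050 without a filter, and under total counts Fdft1 was at 0.018 and Insig1 at 0.013. With each mouse left out in turn, the log2 fold changes in all mice ranged from -0.055 to 0.12 for Idi1, -0.091 to 0.0016 for Fdft1, -0.12 to 0.096 for Dhcr7, and -0.081 to 0.0056 for Insig1. Idi1 in males ranged from -0.32 to 0.093, and Fdft1 in the interaction from -0.020 to 0.18. The median of the members in males was 0.0077 under total counts and ranged from -0.20 without saline male 1 to -0.0065 without saline male 3, and the median difference between the sexes was 0.056 with GC offsets.

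The count of other enzymes called in males was 0 with exactTest, DESeq2, DESeq2 size factors, and total counts. It was also 0 with no filter, with at least 10 counts in every library, and with the contrast from all 12 libraries. With a mouse left out it ranged from 0 to 5, the latter without saline male 3, where 28.6% of genes were called. In females it was 1 without a filter and ranged from 0 to 3, the latter without saline female 4. The share of all genes called in these fits of females is not given here, so these counts are no result about the enzymes. The cause of these changes was not tested. The labels do not say whether replicate numbers pair the mice. The correlations of deviations of libraries with the same number ran from -0.36 to 0.18, and no library correlated best with its own number. Libraries with the same number are of opposite sex by the labels and differ in their GC trends. These correlations therefore cannot show whether they share a litter. The study assigned pups within a litter to saline or to morphine, and no label gives the litter. With the replicate block in all mice 0 of 8 members were called and their median log2 fold change was -0.03. With 3 mice per group and sex, the outermost limits of the 8 intervals in males were 0.602 (Idi1) and 1.54 (Fdps and Dhcr7). Each single gene had a narrower interval, such as 0.683 to 1.09 for Hmgcs1.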
